A study of Saccharomyces cerevisiae with 12 samples.

Results

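Budding yeast cells deficient in the kinase gene SLT2 were compared with wild-type cells after both had been exposed to sodium arsenate. The comparison rests on 6 of the 12 arrays of the study, 3 of each genotype, chosen by their labels, and covers 5449 genes. All 6 cultures were of strain BY4741, grown exponentially in YEPD, a rich medium, at 30 °C and harvested by filtration 2 h after 100 µM sodium arsenate was added, and the genotype was wild-type or slt2 deficient. The other 6 arrays hold the same 2 genotypes without arsenate, sampled at 0 minutes, and are used beside the comparison. BY4741 is a haploid strain of mating type a that lacks working HIS3, LEU2, MET17 and URA3 genes, and both genotypes share these deletions. The sources used here do not give how SLT2 was removed or whether the deficient strain was 1 clone. The replicates are called independent, with no mention of separate cultures. The p-values therefore describe the spread among these samples alone, and that spread may be technical.

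Slt2 is the last kinase of the cell wall integrity pathway. Sensors in the plasma membrane act through the small GTPase Rho1 and protein kinase C on a chain of kinases, Bck1, the redundant pair Mkk1 and Mkk2, and Slt2. Slt2 activates the transcription factor Rlm1, which drives genes of wall proteins and of the pathway itself, and it also acts on the cell cycle factor SBF (Swi4 with Swi6). Arsenate is a toxic analogue of phosphate that enters through phosphate carriers, is reduced to arsenite inside the cell by Arr2 and leaves through the pump Arr3.

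The 3 wild-type arsenate arrays were much less alike than the 3 slt2 arsenate arrays, and this touches every result that follows. Across genes, r between wild-type arsenate array 1 and every other array of the study was 0.62 to 0.78. Array 2 correlated with the slt2 arsenate arrays at 0.93 to 0.94 and array 3 with them at 0.99. The slt2 arsenate arrays correlated with each other at 0.996 to 0.997. Mean differences and list medians over the 3 wild-type arrays therefore average unlike arrays. The median SD of a gene was 0.49 log2 units over the 3 wild-type arrays and 0.07 over the 3 slt2 arrays. The mean of the slt2 arrays lay at least 1 log2 unit from wild-type array 1 for 2417 genes (44.4%), from array 2 for 691 genes (12.7%) and from array 3 for 21 genes (0.385%). Signal at the 3' minus the 5' end of control transcripts, a measure of RNA quality, was 0.92, 1.79 and 1.05 on wild-type arsenate arrays 1 to 3 and between 0.93 and 1.04 on the slt2 arrays. Its part in the differences was not tested. For these reasons each value is given array by array, and groups are called apart where all 3 slt2 arrays lay above, or all 3 below, the 3 wild-type arrays. The gap is then the distance in log2 units between the nearest arrays of the groups, and it is written as negative where slt2 was lower.

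SLT2 (locus YHR030C, chromosome VIII) was the 1 gene that passed the test. Its log2 signal was 11.01, 10.96 and 10.91 on the wild-type arsenate arrays and 5.60, 5.81 and 5.22 on the slt2 arrays. All 3 slt2 arrays were thus more than 5 log2 units below every wild-type array (difference -5.41, SE 0.19, limma adjusted p = 0.0014, 42.6-fold lower). LEU2, URA3 and MET17, absent from the strain, lay between 3.99 and 5.32 on the same 6 arrays, so the signal left for SLT2 was close to that of absent transcripts. HIS3, which is deleted only in part, read 10.58 to 12.12 and checks nothing. The genes on either side of SLT2 were not lower. YHI9 was at 11.07, 10.48 and 11.24 in wild type and at 11.55, 11.33 and 11.60 in slt2 (gap 0.09), and RRM3, a DNA helicase gene, at 8.30, 9.25 and 9.29 against 9.30, 9.44 and 9.49 (gap 0.02). Neither passed the test (adjusted p = 0.365 and 0.389).

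Across all genes limma called 1 gene lower in slt2, SLT2 (0.0184% of 5449), and 0 higher (0.0%). Before adjustment, p was under 0.05 for 485 genes (8.9%). The groups were nevertheless apart for 899 genes with slt2 higher (16.5%) and 1284 with slt2 lower (23.6%). The nearest arrays were at least 1 log2 unit apart for 5 genes with slt2 higher (0.0918%) and for 4 with slt2 lower (0.0734%). Those counts were decided by wild-type array 3, which lay nearest to slt2 for many genes: without it 4 genes were called higher and 10 lower, and 186 and 250 genes had a gap of at least 1 log2 unit. In the model on all 12 arrays 1 gene was called higher, the pheromone-regulated membrane protein gene PRM7 (adjusted p = 0.00677), and 1 lower, SLT2. With 1 weight per group the SLT2 difference was again -5.41, but its limma adjusted p of 0.344 did not pass. These weights, 0.039 for each wild-type and 1.96 for each slt2 array, came from the spread over all genes. SLT2 itself had an SD of 0.05 over the wild-type and 0.30 over the slt2 arsenate arrays.

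The genes with the widest gaps below wild type, after SLT2, were PRM5, SRL3 and CWP1. PRM5 encodes a membrane protein whose transcription is a standard readout of the cell wall integrity pathway. It was at 11.16, 9.16 and 9.43 in wild type and at 7.53, 7.30 and 7.07 in slt2, a difference of -2.61 (SE 0.55) with a gap of -1.63. SRL3, related to the cell cycle repressor gene WHI5, was at 11.03, 9.07 and 8.66 against 7.27, 7.27 and 7.16 (difference -2.35, SE 0.63, gap -1.39). CWP1 encodes a mannoprotein linked to wall glucan and read 13.40, 13.14 and 12.78 against 10.30, 11.41 and 10.81 (difference -2.27, SE 0.33, gap -1.36). For all 3 genes every slt2 array was at least 1 log2 unit below every wild-type array, yet none passed over all genes (adjusted p = 0.365 for each). PRM5 and SRL3 were highest on wild-type array 1, whereas CWP1 was nearly level over the wild-type arrays. Against wild-type array 3 alone the slt2 mean was lower by -2.13 for PRM5, -1.43 for SRL3 and -1.93 for CWP1. SRL3 passed when wild-type arrays 1 and 2 were left out (adjusted p = 0.0404), on the assumption that the remaining array varied like the slt2 arrays.

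**Figure D1:**
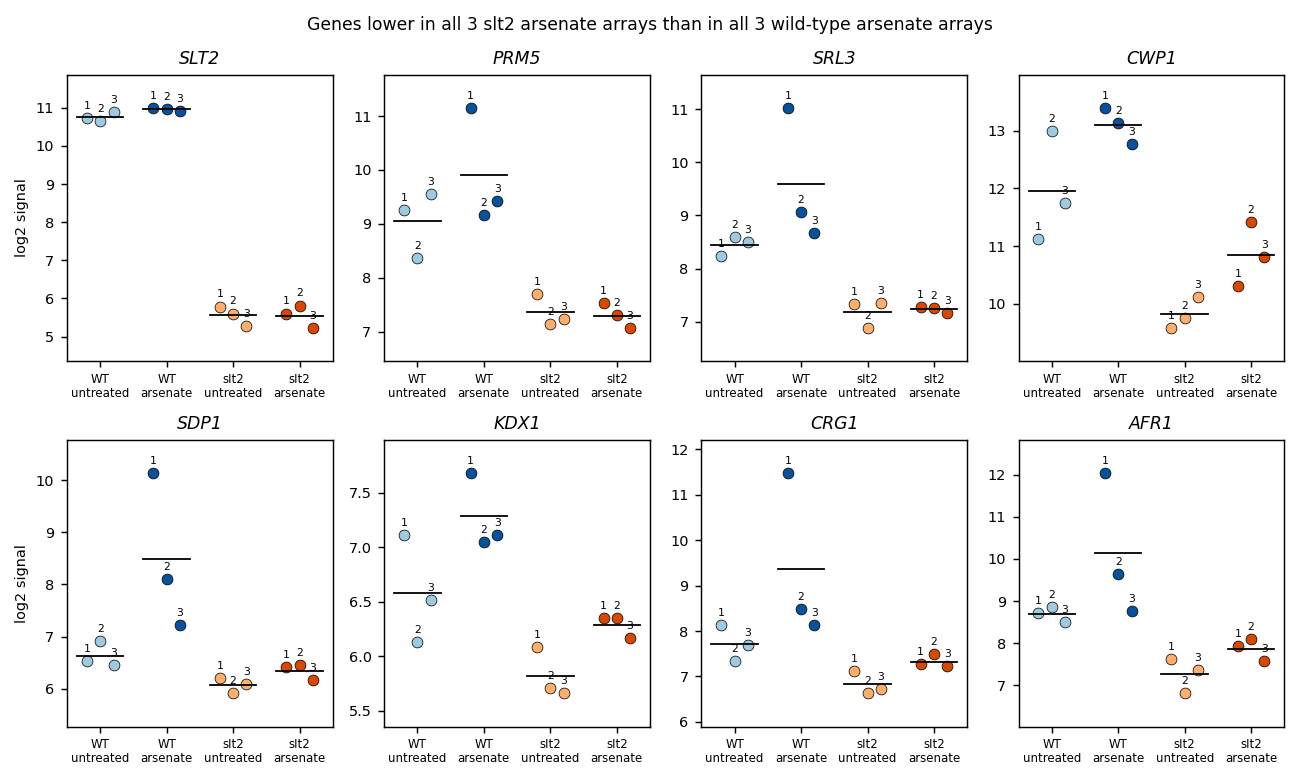
Log2 signal (vertical axes, a range of its own for each gene) of 8 genes on all 12 arrays in the 4 groups, wild type (WT) or slt2, untreated or with arsenate; points are arrays with their replicate number and lines are means of 3. SLT2 drops from about 11 to below 6 in both slt2 groups, and for PRM5, SRL3 and CWP1 the 3 slt2 arsenate arrays lie at least 1 log2 unit below all wild-type arsenate arrays.

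Smaller gaps followed for SDP1, KDX1, AFR1 and CRG1. SDP1, a phosphatase gene whose product acts on Slt2, was at 10.14, 8.10 and 7.21 in wild type and 6.41, 6.46 and 6.16 in slt2 (difference -2.14, SE 0.74, gap -0.76). KDX1, a paralog of SLT2 and a known Rlm1 target, was at 7.68, 7.05 and 7.12 against 6.35, 6.35 and 6.16 (difference -0.99, SE 0.22, gap -0.70). AFR1, whose product regulates the pheromone receptor, read 12.04, 9.64 and 8.76 against 7.93, 8.10 and 7.57 (gap -0.67), and CRG1, a methyltransferase gene, 11.48, 8.48 and 8.14 against 7.27, 7.49 and 7.23 (gap -0.65). SDP1, AFR1 and CRG1 shared 1 pattern, with wild-type array 1 at least 2 log2 units above the other wild-type arrays, while the 3 slt2 arrays stayed within 0.53 of each other. KDX1 kept its 3 wild-type arrays within 0.63.

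The rest of the 15 genes with the widest gaps below wild type had other roles. MET28, a cofactor of the sulfur regulator Met4, was at 8.70, 7.69 and 7.42 in wild type and 6.69, 6.43 and 6.57 in slt2 (gap -0.73). ATG14, a subunit of the autophagy lipid kinase complex, and ATG39, a receptor for autophagy of the nucleus, had gaps of -0.74 and -0.70. MPO1, an enzyme of sphingoid base breakdown, RPM2, a protein subunit of mitochondrial RNase P, and PBI1 had gaps of -0.72, -0.64 and -0.61. FBP1, the gluconeogenic fructose bisphosphatase, was at 13.07 on wild-type array 1 and at 6.40 and 6.39 on arrays 2 and 3, against 5.71, 5.74 and 5.62 in slt2, so that its mean difference of -2.93 came mostly from 1 array. The slt2 signals of FBP1 and of ATG39 (5.53, 5.73 and 5.70) were close to that left for SLT2 (5.22 to 5.81). The sizes of their differences are thus poorly resolved. The last gene inside the 15 was PBI1 (gap -0.608) and the first outside was ASG7 (-0.605).

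Within the kinase chain itself the upstream transcripts were near level. The list of 18 genes held the cascade, its phosphatases and its transcription factors, and also the amidase gene NTA1. Of the 18, SLT2 was the 1 called, 8 were apart with slt2 lower (against 23.6% of all genes) and 3 with slt2 higher (against 16.5%). The list median was -0.30 beside -0.05 over all genes, and against wild-type array 3 it was -0.09, again beside -0.05. PKC1 was at 10.93, 10.01 and 10.09 in wild type and 10.07, 10.07 and 10.08 in slt2, and BCK1 at 10.14, 10.29 and 10.20 against 10.17, 10.10 and 10.21. The groups overlapped for both of these kinase genes, as they did for MKK2 (difference -0.25, SE 0.20). MKK1, the other kinase directly above Slt2, was slightly higher in slt2, at 10.38, 10.26 and 10.25 against 10.01, 9.76 and 10.10 (gap 0.15).

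Among the regulators, MSG5 and SWI4 were apart in opposite directions. MSG5, a phosphatase gene acting on Slt2 and on the mating kinase Fus3, was at 10.64, 10.80 and 10.52 in wild type and 10.12, 10.03 and 10.27 in slt2 (difference -0.52, SE 0.15, gap -0.26). The wild-type arrays of MSG5 lay within 0.27 of each other, so array 1 does not stand apart for it. SWI4 was at 7.51, 7.48 and 7.74 against 8.11, 8.29 and 8.001 (difference 0.56, SE 0.16, gap 0.26), while SWI6 overlapped (difference 0.01). RLM1 was at 10.62, 9.69 and 9.53 against 9.39, 9.44 and 9.41, a gap of -0.08. Of the phosphatase genes PTP2, PTP3, PPZ1 and PPZ2, the differences were -0.34, 0.17, -0.22 and -1.02, with SE between 0.15 and 0.59. PKH2, one of the kinases that activate Pkc1, had a gap of -0.25 and PKH1 none, and the amidase gene NTA1 overlapped too. Of 13 sensor and Rho1 genes 3 were apart lower (23.1%) and 2 higher (15.4%), near the shares of all genes. Their median was -0.19, and -0.04 against wild-type array 3. Among those apart were the exchange factor genes ROM1, with a gap of -0.51, and TUS1 (-0.08), RHO1 itself (-0.11) and the sensor gene WSC2 (0.08).

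Known targets of the pathway were either apart with slt2 lower or overlapped between the genotypes. Of 28 measured targets of Rlm1 and of the pathway, 13 were apart with slt2 lower and 0 with slt2 higher, where 23.6% and 16.5% of all genes were. Without wild-type array 1, 16 were apart lower (of 1474 among all genes) and 0 higher (of 1140). Against wild-type array 3 alone 19 were apart lower (of 2461) and 6 higher (of 1443). The list median was -0.29, and it was -0.46, -0.47 and -0.13 against wild-type arrays 1, 2 and 3. No test was made over this list or any other.

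Beyond the 5 targets already given (PRM5, SRL3, CWP1, KDX1 and CRG1), PST1, SED1 and CCW14 were lower by modest amounts. PST1, a wall protein gene induced by wall damage, was at 12.003, 12.56 and 11.64 in wild type and 11.19, 11.36 and 11.21 in slt2 (difference -0.81, SE 0.26, gap -0.28). SED1, a major structural wall glycoprotein gene, was at 14.37, 14.38 and 13.99 against 13.72, 13.86 and 13.69 (gap -0.13), and CCW14, another wall glycoprotein gene, had a gap of -0.12. The glucanase-family gene BGL2 and HSP150, a member of the PIR family of wall proteins, had gaps of -0.11 each, and the plasma membrane protein gene PUN1 one of -0.08. ECM4, a glutathione transferase gene, was apart by -0.23, with wild-type arrays at 13.18, 11.14 and 9.50 against 9.15, 9.24 and 9.27.

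PIR3, the PIR family gene with the largest mean difference among the targets, showed how far the wild-type arrays were spread. It was at 11.38, 10.61 and 7.37 in wild type and 7.03, 6.67 and 6.86 in slt2, a difference of -2.93 with SE 1.04 and a gap of -0.34. Against wild-type array 3 alone the difference was -0.52. SPI1, a wall protein gene of stationary phase, likewise read 14.05, 12.75 and 9.54 against 9.64, 9.87 and 9.66, and its groups overlapped. GSC2 (FKS2), the inducible glucan synthase subunit gene, was at 11.44, 12.87 and 10.86 against 11.06, 10.97 and 10.96 and overlapped as well. So did BAG7, a GTPase activator gene of Rho1, at 9.02, 5.48 and 4.84 against 5.23, 5.02 and 5.47.

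The other targets overlapped between the genotypes. PIR1 was at 13.04, 13.15 and 13.07 in wild type and 13.02, 13.06 and 13.04 in slt2, and CCW12, an abundant wall protein gene, at 14.65, 14.67 and 14.57 against 14.60, 14.60 and 14.62. Differences for CIS3, CRH1, YPS1, YPS3, DFG5, MCD4, CHS3, FKS1, RCR1 and MPC1 lay between -0.27 and 0.52, with SE between 0.14 and 0.79, and none of these groups was apart. For FKS1, the main glucan synthase subunit gene, wild-type array 1 was at 11.79 and the other 5 arrays between 13.39 and 13.54.

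Wall synthesis genes outside the target list gave smaller differences. Of 30 glucan and mannan synthesis genes, 4 were apart higher (13.3%, beside 16.5% of all genes) and 2 lower (6.67%, beside 23.6%; median 0.21, and 0.01 against wild-type array 3). OCH1, which starts the outer mannan chain, was lower with a gap of -0.24, and UTR2, a chitin transglycosylase gene, and MNN1, a mannosyltransferase gene, were higher with gaps of 0.05 and 0.14. Of 12 chitin synthesis genes 2 were apart higher (16.7%) and 1 lower (8.33%), beside 16.5% and 23.6% of all genes. Their median was 0.01, with gaps of 0.10 for BNI4, 0.03 for CHS2 and -0.02 for CHS1. Of 15 TIR, DAN and FLO wall mannoprotein genes 6 were apart lower (40.0%) and 2 higher (13.3%). Their median was -0.42, and -0.08 against wild-type array 3. FLO10, a flocculin gene, was at 8.86, 7.85 and 7.83 against 7.39, 7.35 and 7.43 (gap -0.40), DAN4 had a gap of -0.11 and TIR3 one of 0.23. Of 12 cell separation genes 1 was apart higher (8.33%) and 2 lower (16.7%), beside the same shares of all genes. The higher gene was SUN4 (gap 0.21). The lower genes were the glucanase gene DSE4 (-0.16) and ASH1 (-0.11), the daughter-cell repressor of mating type switching.

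Above wild type, the widest gaps were those of PRM7 and BSC1, which are neighbours on chromosome IV. PRM7 was at 7.48, 8.19 and 8.36 in wild type and at 10.78, 10.49 and 11.33 in slt2, a difference of 2.86 (SE 0.33, adjusted p = 0.365) with a gap of 2.14. BSC1 was at 5.60, 4.25 and 5.49 against 7.84, 7.33 and 8.12 (difference 2.65, SE 0.43, gap 1.73). Its wild-type signal was close to that of the absent genes, so the size of that difference is poorly resolved. Both genes were higher on every slt2 array, and by 2.51 and 2.28 against wild-type array 3 alone.

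SRO9 and GFD2 were also adjacent, on chromosome III, and higher in slt2. SRO9, which encodes an RNA-binding protein of the cytoplasm, was at 6.58, 8.69 and 10.15 in wild type and 11.38, 11.50 and 11.93 in slt2 (difference 3.13, SE 0.89, gap 1.23). GFD2 was at 6.93, 10.20 and 10.62 against 11.23, 11.24 and 11.37 (gap 0.62). On wild-type array 1 both were far below the other wild-type arrays. YBR238C, a paralog of the mitochondrial gene RMD9, was at 5.91, 8.21 and 8.70 against 9.75, 9.74 and 10.20 (gap 1.04), and TOD6, a repressor of ribosome biogenesis genes, at 6.86, 9.21 and 10.28 against 11.00, 10.93 and 11.19 (gap 0.65). These 4 genes had the same order on the wild-type arrays, lowest on array 1 and highest on array 3.

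CPS1, the vacuolar carboxypeptidase S gene, was among the higher genes with little spread in wild type. It was at 9.52, 9.78 and 9.89 in wild type and 10.85, 10.90 and 10.99 in slt2 (difference 1.18, SE 0.16, gap 0.96, 2.27-fold). The same held for YOR338W, at 7.44, 7.58 and 7.58 against 8.57, 8.30 and 8.52 (difference 0.93, SE 0.15, gap 0.71), and for the RNA-binding protein gene PSP2, at 6.32, 6.23 and 6.74 against 7.40 on each slt2 array (gap 0.66). CPD1, a cyclic nucleotide phosphodiesterase gene, was at 7.56, 6.77 and 7.59 against 8.29, 8.65 and 8.89 (gap 0.69). ADA2, an adaptor of histone acetyltransferase complexes, was at 8.54, 6.71 and 7.48 against 9.28, 9.35 and 9.65 (difference 1.85, SE 0.47, gap 0.74), and YDL129W had a gap of 0.67.

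PHO5 and HXT1 respond to nutrients, phosphate and glucose in turn. PHO5, the secreted acid phosphatase gene, was at 9.43, 8.95 and 10.50 in wild type and 11.36, 11.25 and 11.31 in slt2 (difference 1.68, SE 0.40, gap 0.75, 3.20-fold). HXT1, a low-affinity transporter gene induced by high glucose, was at 5.76, 10.92 and 11.58 against 12.44, 12.37 and 12.43 (gap 0.78). The 5.76 of wild-type array 1 was unlike the other wild-type arsenate arrays, and untreated wild-type array 1 was also low, at 6.22. YBL005W-A, a Gag gene of a Ty1 retrotransposon, was at 8.998, 6.12 and 8.71 against 10.70, 10.22 and 10.25 (gap 1.22). Ty1 exists in many near-identical copies, so its probe set need not report this copy. In this direction the last gene inside the 15 was GFD2 (gap 0.616) and the first outside was DHH1 (0.611).

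**Figure D2:**
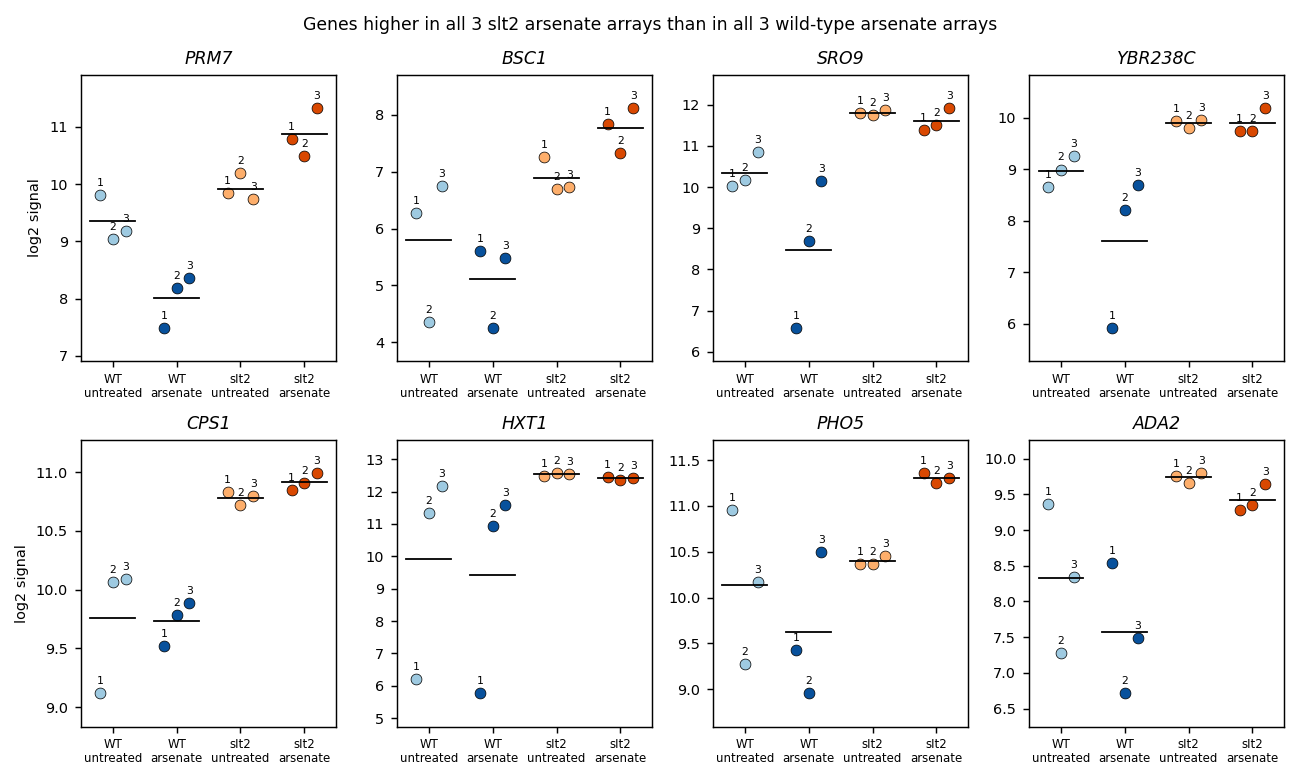
Log2 signal (vertical axes, a range of its own for each gene) of 8 genes on all 12 arrays, drawn as for the genes lower in slt2. PRM7 and BSC1 lie at least 1.73 log2 units higher on every slt2 arsenate array than on every wild-type arsenate array, and SRO9, YBR238C and HXT1 are lowest on wild-type arsenate array 1.

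The 6 arrays without arsenate, none of which enters the comparison above, showed the genotype difference in the same direction for each of these genes. All 15 genes with the widest gaps above wild type had higher means in untreated slt2 cells, and 11 of the 15 were apart there too, where 8.94% of all genes were. All 15 of the lower genes had lower means, and 13 were apart, where 17.9% of all genes were (12 of 14 with SLT2 left out). All 6 slt2 arrays lay beyond all 6 wild-type arrays for 10 of the higher genes and for 9 of the 14 lower genes besides SLT2. The shares over all genes were 4.66% and 6.4%, but the arsenate arrays in that count also chose the genes, so nothing is read from it. In a fit to the 6 untreated arrays limma called SLT2 lower (difference -5.20, SE 0.15, adjusted p = 0.000135; 0.0184% of genes) and 0 genes higher (0.0%), with p under 0.05 before adjustment for 742 genes (13.6%). A gap of at least 1 log2 unit was found for 2 genes with untreated slt2 lower (0.0367%), SLT2 and CWP1, and for 0 with it higher (0.0%). The sets were picked on the arsenate arrays, so their size there is no result, while the untreated values are of arrays that played no part in the choice. Same-numbered wild-type arrays may still share deviations in the 2 conditions, which was not tested. HXT1 was lowest on wild-type array 1 in both conditions (6.22 untreated, 5.76 with arsenate) and ADA2 on array 2 (7.27 and 6.71). TOD6 was lowest on array 2 untreated (9.20) and on array 1 with arsenate (6.86). The untreated agreement is therefore not taken as independent of the choice. Untreated wild-type array 2 had its highest r, 0.9755, outside its own group (at most 0.9732). Wild-type arsenate array 2 also had its highest r at 0.9755, and the 3' minus 5' signals of these arrays were 1.59 and 1.79.

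PRM5, SRL3 and CWP1 differed without arsenate as well. PRM5 was at 9.26, 8.37 and 9.56 in untreated wild type and 7.69, 7.14 and 7.24 in untreated slt2 (difference -1.70, SE 0.33). SRL3 was at 8.25, 8.59 and 8.49 against 7.33, 6.88 and 7.35 (difference -1.26, SE 0.17), and CWP1 at 11.12, 13.00 and 11.74 against 9.57, 9.75 and 10.11 (difference -2.14, SE 0.47). For each the untreated groups were apart, while the adjusted p was 0.36. Of the higher genes, SRO9 was 10.03, 10.17 and 10.85 without arsenate in wild type and 11.80, 11.75 and 11.87 in slt2 (gap 0.90).

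PRM7 and PHO5 overlapped between the untreated genotypes. PRM7 was at 9.81, 9.05 and 9.19 in untreated wild type and 9.84, 10.19 and 9.74 in untreated slt2, so that with arsenate its level was lower in wild type and higher in slt2 than without. PHO5 was at 10.96, 9.28 and 10.16 without arsenate in wild type and 10.37, 10.37 and 10.45 in slt2. The genotype difference with arsenate exceeded that without by 2.28 for PRM7 and 1.42 for PHO5. In the model on all 12 arrays 0 genes passed the test of that change (28 genes, 0.514%, had an unadjusted p under 0.05), and the adjusted p was 0.711 for both. Whether arsenate alters the genotype difference of any single gene was therefore not resolved at this spread.

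**Figure D3:**
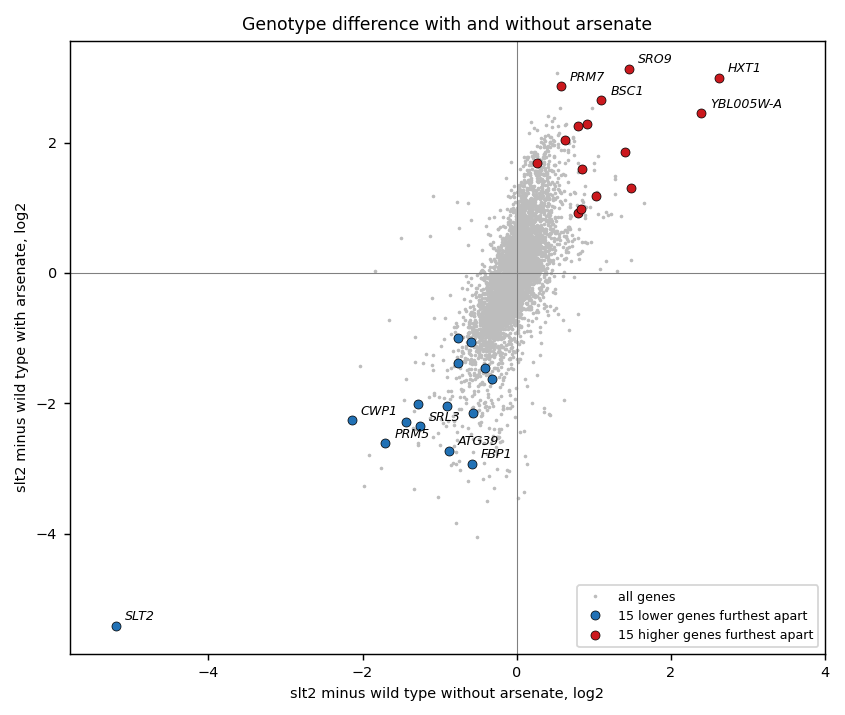
Slt2 minus wild type (log2) with arsenate (vertical axis) against the same without arsenate (horizontal axis) for 5449 genes, each the difference of 2 means of 3 arrays; coloured points are the 15 genes with the widest gaps in each direction with arsenate. All 30 coloured points lie in the quadrants of equal sign, and SLT2 lies near -5 on both axes.

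Genes of arsenic handling were at most weakly apart between the genotypes. ARR2, the arsenate reductase gene, was at 10.88, 10.63 and 12.24 in wild type and 12.37, 12.23 and 12.38 in slt2, and ARR3, the arsenite export pump gene, at 11.43, 8.91 and 11.89 against 11.85, 11.82 and 12.09. The groups overlapped for both, and against wild-type array 3 the slt2 means differed by 0.08 and 0.03. Of 11 genes of the list 1 was apart higher and 1 lower (9.09% each, beside 16.5% and 23.6% of all genes). The list median was 0.14. The higher gene was PHO84, the high-affinity phosphate carrier through which arsenate enters, at 9.55, 10.99 and 13.36 against 13.88, 13.75 and 13.84 (difference 2.52, SE 0.94, gap 0.39). The lower gene was the hexose transporter gene HXT9 (gap -0.28). ARR1, the regulator of ARR2 and ARR3, YCF1, a vacuolar transporter of arsenic conjugates, FPS1, the arsenite channel, and YAP1, a regulator of oxidative defence, differed by 0.00, 0.14, 0.19 and -0.12, with SE between 0.16 and 0.32. PHO87, a low-affinity phosphate carrier gene, differed by -0.02, the sodium-coupled phosphate carrier gene PHO89 by 1.02 and HXT7 by -1.37, and the groups of all 3 overlapped.

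Phosphate genes were higher in slt2 more widely. Of 21 measured genes of phosphate uptake, storage and regulation, 15 were apart with slt2 higher (16.5% of all genes) and 1 with slt2 lower. The list median was 0.72, and it was 0.69, 0.95 and 0.24 against wild-type arrays 1, 2 and 3. Without wild-type array 1, 16 were apart higher, and as many were apart higher against wild-type array 3 alone, where 1443 of 5449 genes were. Beside PHO5 and PHO84, PHM6 was at 5.04, 6.73 and 7.58 in wild type and 8.71, 8.11 and 8.21 in slt2 (gap 0.53). PHO4, the transcription factor of the pathway, was at 10.54, 9.76 and 10.67 against 11.07, 11.13 and 11.15 (difference 0.79, SE 0.27, gap 0.39). Without arsenate the list median was 0.31, with 5 of 21 apart higher against 8.94% of all genes. No member passed the test over all genes.

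Oxidative defence and sulfur genes differed in both directions. Of 32 oxidative defence genes, 11 were apart with slt2 lower (34.4%, beside 23.6% of all genes) and 2 with slt2 higher (6.25%, beside 16.5%; median -0.37, and -0.05 against wild-type array 3). SRX1, the sulfiredoxin gene, was at 8.93, 8.90 and 7.74 in wild type and 7.15, 7.35 and 7.20 in slt2 (gap -0.39), and GRX1, a glutaredoxin gene, had a gap of -0.19. ATR1, a drug efflux pump gene, was higher, at 8.88, 8.99 and 10.11 against 10.68, 10.52 and 10.36 (gap 0.25). Of 30 sulfur genes 8 were apart higher (26.7%) and 2 lower (6.67%; median 0.46, and -0.03 against wild-type array 3). MET13, a methylenetetrahydrofolate reductase gene, was higher with little spread, at 9.34, 8.82 and 9.19 against 9.75, 9.67 and 9.73 (gap 0.34), as was STR3 of transsulfuration (gap 0.23). MET6, methionine synthase, was higher with more spread, at 12.21, 13.08 and 13.41 against 13.59, 13.74 and 13.58 (gap 0.17). MET28, given above, was lower. Of 5 aryl-alcohol dehydrogenase genes AAD6 and AAD4 were apart higher (gaps 0.37 and 0.12) and AAD10 lower (-0.10).

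The medians of stress and carbohydrate storage genes were below 0 by amounts that depended on the wild-type array. The general stress list of 39 genes had a median difference of -2.27, made up of -4.24, -2.39 and -0.10 against wild-type arrays 1, 2 and 3. Of its members 12 were apart lower (30.8%, near the 23.6% of all genes) and 0 higher. Against array 3 alone 12 of the 39 were again apart lower, where 2461 of 5449 genes were, and none of the 39 passed the test. The 20 trehalose and glycogen genes had a median of -1.89, with 11 apart lower (55.0%) and 0 higher, and medians of -3.32, -1.57 and -0.18 against the 3 arrays. TPS2, trehalose phosphate phosphatase, was at 13.12, 12.09 and 10.94 in wild type and 10.15, 10.37 and 9.98 in slt2 (gap -0.57). GSY1, a glycogen synthase gene, was at 12.68, 11.24 and 9.16 against 8.21, 8.74 and 7.73 (gap -0.42), and PIG2 and TSL1 had gaps of -0.36 and -0.23. STF2, a hydrophilin gene, and XBP1, a repressor induced by stress, were apart by -0.22 and -0.20. XBP1 read 5.45, 6.15 and 5.67 in slt2, near the signal left for SLT2, so the size of its difference is poorly resolved.

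Respiration had the highest share of members apart with slt2 lower among the 39 lists (80.0%). Of 35 genes of the respiratory chain and ATP synthase, 28 were apart with slt2 lower and 0 higher (23.6% and 16.5% of all genes), and 28 were apart lower also without wild-type array 1 and against array 3 alone, where 2461 of 5449 genes were. The median was -0.92, and -1.76, -0.86 and -0.19 against the 3 wild-type arrays. COX7, a cytochrome oxidase subunit gene, was at 13.79, 12.86 and 12.07 in wild type and 11.56, 11.71 and 11.57 in slt2 (gap -0.37), and the hypoxic isoform gene COX5B had a gap of -0.31, COX12 one of -0.22 and the NADH dehydrogenase gene NDI1 one of -0.21. The 17 tricarboxylic acid cycle genes had a median of -0.92, and -1.87, -0.72 and -0.11 against wild-type arrays 1, 2 and 3. Of the 17, 8 were apart lower (47.1%, beside 23.6% of all genes) and 0 higher. Among the 8 were SDH2 of succinate dehydrogenase at 13.77, 12.04 and 10.83 against 10.20, 10.50 and 10.17 (gap -0.33), SDH3 (-0.26), MDH1 (-0.16) and KGD2 (-0.08). In untreated cells the respiratory median was -0.43, with 22 of 35 apart lower where 17.9% of all genes were, and the cycle median was -0.26, with 10 of 17.

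The 32 glucose-repressed genes had the widest range. Their median difference was -2.08, from -5.41 against wild-type array 1 to -0.73 against array 2 and -0.07 against array 3, and 16 were apart lower (50.0%, beside 23.6% of all genes) and 1 higher. CAT8, the activator of gluconeogenic genes, was at 11.81, 8.07 and 6.74 in wild type and 5.96, 6.30 and 5.51 in slt2 (gap -0.43), JEN1, the lactate carrier gene, had a gap of -0.34 and FDH1, formate dehydrogenase, one of -0.42. The slt2 signal of CAT8 was not far above that of absent genes. Of 18 stationary phase genes 5 were apart lower (27.8%, near the share of all genes). Their median of -2.13 became 0.15 against wild-type array 3. The slt2 mean was above that array for 13 of the 18, and for 39.4% of all genes. MBR1 was apart by -0.30, SNO4 by -0.21, SPG5 by -0.06 and SPG1 by -0.02. Autophagy genes had a median of -1.13, with 13 of 18 apart lower (72.2%) and 0 higher, and -0.27 against array 3. ATG17, a scaffold of the initiating kinase complex, and ATG19, a receptor of the vacuolar targeting route, had gaps of -0.44 and -0.31.

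**Figure D4:**
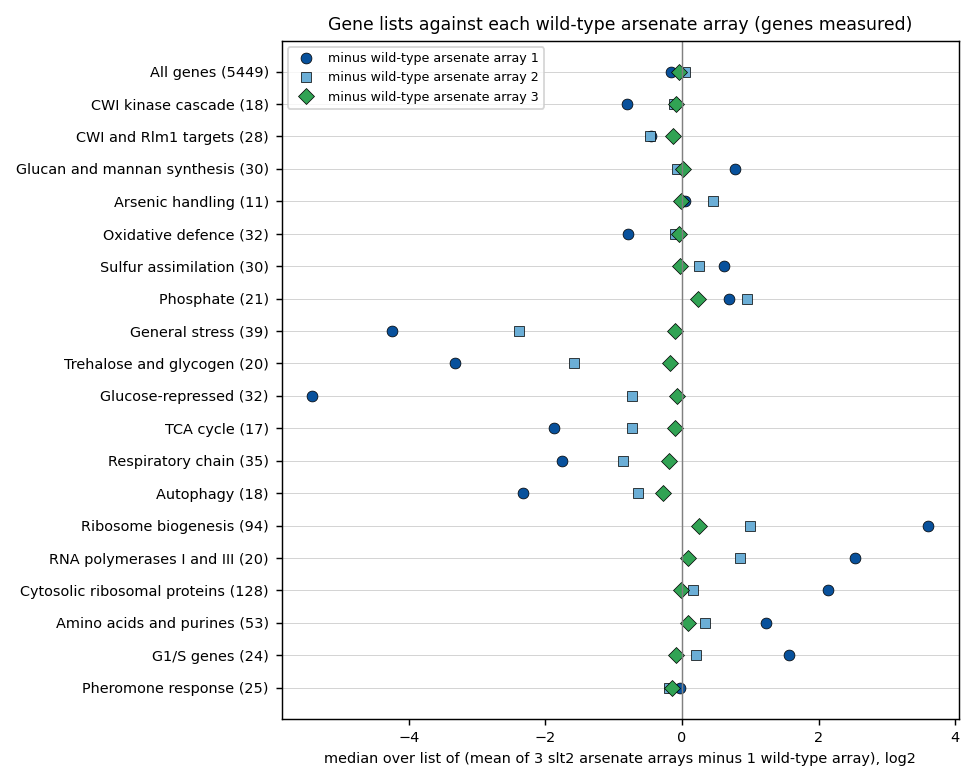
Median over each gene list of the slt2 arsenate mean minus 1 wild-type arsenate array (horizontal axis, log2), with 1 marker for each of the 3 wild-type arrays and the number of genes measured in brackets (CWI, cell wall integrity; TCA, tricarboxylic acid). Stress, glucose-repressed and ribosome biogenesis lists are far from 0 against array 1 and between -0.10 and 0.25 against array 3.

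Ribosome production genes were higher in slt2. Of 94 ribosome biogenesis genes, 81 were apart with slt2 higher (86.2%, beside 16.5% of all genes) and 0 lower. Counts of 81 were also found without wild-type array 1 and against array 3 alone, where 1443 of 5449 genes were. The median was 1.58, and 3.60, 1.002 and 0.25 against wild-type arrays 1, 2 and 3. RRP12, an export factor of ribosomal subunits, was at 7.41, 10.63 and 11.65 in wild type and 12.11, 12.11 and 12.23 in slt2 (gap 0.46). NOP8 had a gap of 0.46 and PWP2 and NOG2 gaps of 0.40. In untreated cells the median was 0.32, and 41 of the 94 were apart higher where 8.94% of all genes were. The 20 genes of RNA polymerases I and III had a median of 1.12, and 2.54, 0.85 and 0.09 against wild-type arrays 1, 2 and 3. Of the 20, 11 were apart higher (55.0%, beside 16.5% of all genes) and 0 lower. Among the 11 were RPA49 (gap 0.24), RPO31 and RPA135 (0.18) and RPC34 (0.14).

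Cytosolic ribosomal protein genes followed the wild-type array they were set against. Their median over 128 genes was 0.79, and 2.14, 0.16 and -0.01 against arrays 1, 2 and 3, with 26 apart higher (20.3%, near the 16.5% of all genes) and 0 lower. Against array 3 alone 26 were apart higher and 35 lower, where 1443 and 2461 of 5449 genes were. The widest gaps were 0.08 for RPL15A, 0.07 for RPS16A and 0.05 for RPL4A and RPS0B. Of 53 amino acid and purine synthesis genes 17 were apart higher (32.1%) and 1 lower (median 0.59, and 0.08 against array 3), among them ILV2, acetolactate synthase, at 10.83, 11.98 and 12.77 against 13.05, 13.05 and 13.02 (gap 0.25), BAT1 (0.20), ARO3 (0.18) and LYS4 (0.13). Ergosterol genes had a median of 0.41 that turned to -0.01 against array 3. Of these 25 genes 3 were apart higher, a smaller share than the 16.5% of all genes, and 0 lower (beside 23.6%). The 3 were UPC2 (gap 0.15), HMG1 (0.14) and MVD1 (0.03). Of 22 glycolytic genes 6 were apart higher (27.3%, beside 16.5% of all genes) and 1 lower (4.55%, beside 23.6%). Their median was 0.09, with gaps of 0.14 for the glucose transporter gene HXT3, 0.10 for PFK1 and 0.09 for PFK2.

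G1/S genes, many of them under SBF, had a median of 0.61 that came from wild-type array 1 (1.57) and was -0.08 against array 3. Of 24 genes 5 were apart higher (20.8%, beside 16.5% of all genes) and 2 lower (8.33%, beside 23.6%). CLN1, a G1 cyclin gene, was lower, at 10.08, 10.73 and 10.29 in wild type and 9.69, 9.84 and 9.70 in slt2 (difference -0.62, SE 0.21, gap -0.24), whereas GIC1, an effector gene of the polarity GTPase Cdc42, was higher (gap 0.27). Of 9 histone genes 2 were apart lower (22.2%), the variant gene HTZ1 (gap -0.18) and the linker gene HHO1 (-0.14). HHT2 was apart higher (0.06), which made 11.1%. Of 33 proteasome genes 3 were apart lower (9.09%, beside 23.6% of all genes) and 0 higher (beside 16.5%). Their median was -0.08, with gaps of -0.10 for PUP1, -0.08 for the activator gene RPN4 and -0.01 for PRE3. Of 30 chaperone genes 4 were apart lower and 3 higher, both smaller shares than the 23.6% and 16.5% of all genes. Their median was -0.33, and -0.06 against array 3. Among those apart were HSP78 of mitochondria (gap -0.13), HSP10 (-0.07), SIS1 (-0.04) and SSE1 (0.08).

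Secretory pathway genes included some of the steadier differences. Of 18 genes of folding in the endoplasmic reticulum 6 were apart lower (33.3%, beside 23.6% of all genes) and 2 higher (11.1%, beside 16.5%), with a median of -0.04 that turned positive with centred arrays. DER1, which acts in the removal of misfolded proteins, was at 10.01, 10.10 and 9.996 in wild type and 9.47, 9.63 and 9.34 in slt2 (difference -0.55, SE 0.15, gap -0.37), and it was apart without arsenate too (gap -0.24). MPD1, a disulfide isomerase gene, was at 11.15, 11.04 and 10.71 against 10.25, 10.25 and 10.39 (gap -0.32), and EMP46 and HRD1 had gaps of -0.32 and -0.16. In the osmotic stress list, GPD2, a glycerol phosphate dehydrogenase gene, was higher with little spread, at 9.47, 9.66 and 9.67 against 10.45, 10.26 and 10.46 (difference 0.79, SE 0.15, gap 0.59). Its paralog GPD1 was lower (gap -0.08), as was GUT2 (-0.12), and the osmosensor gene SLN1 was higher (0.26). Of the 20 genes 5 were apart lower and 3 higher, near the 23.6% and 16.5% of all genes. Their median was -0.05, positive with quantile normalization.

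Of 25 pheromone response genes 6 were apart lower (24.0%, beside 23.6% of all genes) and 2 higher (8.0%, beside 16.5%; median -0.22, and -0.15 against array 3). ASG7, a gene specific to a cells, was at 10.94, 9.99 and 8.88 in wild type and 8.06, 8.28 and 7.90 in slt2 (gap -0.61), with overlap when untreated, and PRM2 and TEC1 had gaps of -0.26 and -0.19. PRM2 read 5.34, 5.34 and 5.07 in slt2, near the signal of absent genes, so the size of its difference is poorly resolved. Of 7 markers of a cells 2 were apart lower (28.6%), ASG7 and AGA2 (-0.04), and the median was -0.02, positive with centred arrays. Of only 5 markers of alpha cells 2 were apart lower (40.0%, beside 23.6% of all genes) and 0 higher (beside 16.5%). The receptor gene STE3 was at 8.45, 8.12 and 8.01 against 7.43, 7.51 and 7.58 (gap -0.43). The other was MF(ALPHA)1 (-0.11), which at 5.23 to 6.19 was near the signal of absent genes. Of 16 meiosis genes 4 were apart lower (25.0%) and 1 higher (6.25%). Their median was -0.43, and -0.12 against array 3. IME2, a meiotic kinase gene, was at 8.92, 7.13 and 7.36 against 6.45, 6.67 and 5.89 (gap -0.46), NDT80 and SPS1 had gaps of -0.25 and -0.26, and MEI4 one of 0.29.

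Of 26 iron genes 4 were apart higher (15.4%, beside 16.5% of all genes) and 3 lower (11.5%, beside 23.6%), with a median of 0.09 with arsenate and 0.46 without. FRE7, a metalloreductase gene, was at 9.68, 10.002 and 7.59 in wild type and 7.25, 7.19 and 6.97 in slt2 (gap -0.34), FIT1 had a gap of -0.08, and FRE4 and FET3, the multicopper ferroxidase gene, were higher (0.18 and 0.15). Of 13 zinc genes 1 was apart higher (7.69%), IZH4 (0.05), with a median of 0.25, and 0.09 against wild-type array 3. By chromosome the median difference lay between -0.17 (chromosome I, 90 genes) and -0.01 (chromosomes V and XII), beside -0.05 over all genes, and between -0.09 and -0.03 against wild-type array 3.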

How the data were processed

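Labelled RNA was hybridised to 12 Affymetrix yeast arrays. The values deposited by the authors are log2 signals per probe set, and per the submitters' processing notes they came from RMA, run in Affymetrix Expression Console. The sources used here do not give its version or settings, or whether all arrays were summarised together. Values ran from 3.05 to 14.91. Of 5814 probe sets, 98 were control or reporter probe sets and 5498 had 1 gene symbol (0 had several and 316 none), and all 5498 were matched by gene number to the RefSeq R64 gene table. For 47 genes the brightest of several probe sets was kept, and their genotype differences disagreed by up to 1.0 log2 units.

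The 6 arsenate arrays were fitted with limma 3.58.1 in R 4.3.3 (lmFit, eBayes, no covariate), with Benjamini-Hochberg adjustment over 5449 genes and a threshold of 0.05. This fit was preferred to 1 on all 12 arrays because the spread of the groups differs. The fit was tested on simulated data. Gaps and medians were computed in Python 3.11.15 and figures with matplotlib 3.10.9. An exact permutation test of 3 against 3 arrays cannot go below 0.1 and was not used.

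The lists, comparisons and rules were chosen with earlier results of these data known. Named genes are SLT2, its neighbours, strain markers, called genes, up to 15 genes per direction with the widest gaps, all members of the arsenic, kinase cascade and target lists, and up to 4 members of each other list by gap, or 2 by difference where no groups were apart. Alternatives were other models, normalizations, filters, probe sets and left-out arrays. Promoter motifs were not analysed here, and 15 list entries were not matched.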

Additional observations from a re-analysis of the deposited data

Results flagged for a closer look

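One reporter probe set, of 47 on the array that no comparison uses, separated the genotypes. Its log2 signal was 7.61, 8.83 and 6.48 on the wild-type arsenate arrays and 14.19, 14.15 and 14.24 on the slt2 arsenate arrays. On the untreated arrays it was 4.91, 6.19 and 5.29 in wild type and between 14.18 and 14.22 in slt2. The nearest arrays of the genotypes were 5.32 log2 units apart. Other reporter probe sets had slt2 higher on all arrays by smaller gaps, of 0.23 and 0.14. The one with 0.23 had a gap of 1.03 on the arsenate arrays alone. The sequence that the probe set with the widest gap reports is not named in the files, and it is not assigned to a gene here.

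FRE7 was apart between the genotypes in opposite directions with and without arsenate. Its gap was -0.342 with arsenate and 0.062 without. In the 12-array limma model the change in its genotype difference had an adjusted p of 0.711, and 0 of 5449 genes passed that test. In all, 5 genes were apart in opposite directions in the 2 conditions. The test for an outlying sample used here needs at least 4 samples and was not applied to single values in groups of 3.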

How the results depend on the processing

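Under the alternatives tried, limma called between 0 and 4 genes higher and between 0 and 10 lower in slt2 with arsenate. The model on all 12 arrays called 1 gene higher. Leaving out arrays 1 at a time gave 0 to 4 genes higher, 1 to 10 lower and an SLT2 difference from -5.55 to -5.25, with the extremes of both counts without wild-type array 3. Without wild-type arrays 1 and 2 there were 2 genes lower, and 8 genes with a gap of at least 1 log2 unit above wild type. Left-out arrays moved that count from 5 to 186, and the count below wild type from 4 to 250. With the replicate block and with 1 weight per group 0 genes were lower, and the SLT2 difference of -5.41 had an adjusted p of 0.0691 and 0.344. The cause was not tested. Same-numbered wild-type and slt2 arsenate arrays deviated together with r of 0.09, -0.06 and 0.31 across genes, and wild-type array 1 correlated best with slt2 array 2, so the numbers were not taken to pair the arrays. Without arsenate, leaving out 1 array gave 0 to 1 gene higher and 1 to 4 lower, an alternative chosen after seeing the data, as was counting list members apart without arrays 1 and 2. Array quality weights were fitted but did not converge (1 weight was 3.5e-07), and no result was computed with them.

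Of 29 genes with the widest gaps besides SLT2, 0 changed sign, and PRM7 and SRL3 passed the test under 1 alternative each. Of 39 list medians, 2 changed sign with centred arrays, 2 with quantile normalization, 7 without wild-type array 1 and 10 without arrays 1 and 2. The number of arrays limits the precision.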
